A study of Homo sapiens with 12 samples.

Results

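The 37 genes of the human mitochondrial genome were followed through every library of a PRMT5 knockdown and irradiation experiment in prostate cancer cells. They are all the rows that the count tables place on chrM, 37 of 63299 genes, taken by position and not by any measured value. They comprise 13 messenger RNAs, 2 ribosomal RNAs and 22 transfer RNAs. The cells were LNCaP-shPRMT5, an established line from a prostate cancer metastasis that carries a hairpin against PRMT5, a protein arginine methyltransferase, switched on by doxycycline. All 12 libraries come from this engineered line, with 3 in each of 4 groups. Non-irradiated controls had no doxycycline and 0 Gy. Non-irradiated knockdowns had doxycycline, renewed at 48 h intervals to 1 µg/mL, and 0 Gy. Irradiated controls had no doxycycline and a dose of 2 Gy, with harvest 24 h afterwards. Irradiated knockdowns had both treatments, with the same harvest time. The hairpin and doxycycline itself, an antibiotic that acts on bacterial and mitochondrial ribosomes, were always given together, so their contributions cannot be told apart. The irradiated and non-irradiated libraries were deposited as separate tables, so irradiation and any difference between the tables cannot be told apart either. The design asks what knockdown does in each irradiation state, what irradiation does in each doxycycline state, and whether the knockdown effects differ between those states.

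Mitochondrial DNA is a small circle that is transcribed on both strands by the polymerase POLRMT with the factors TFAM and TFB2M. Long precursors are cut at the transfer RNAs that punctuate them, and the freed messenger RNAs receive short poly(A) tails and are held by the LRPPRC and SLIRP complex. The heavy-strand transcript carries both ribosomal RNAs, most transfer RNAs and 12 messenger RNAs. The light-strand transcript carries MT-ND6 and 8 transfer RNAs, and most of its length is degraded. The 13 encoded proteins are core subunits of respiratory complexes I, III and IV and of ATP synthase, and all their partners are encoded in the nucleus. Of the 37 rows, 28 are annotated on the + strand, here called heavy-strand genes, and 9 on the − strand, here called light-strand genes. Per the labels' protocol, polyadenylated RNA was taken for the libraries, so counts on transfer RNAs, whose mature forms lack long poly(A) tails, are small. A transfer RNA count may include precursor fragments, and the strand setting of the counting is not given in the sources used here. Reads from a gene and from the antisense stretch of the opposite precursor can therefore not be told apart.

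The sequences below belong to the genes on which the results turn. They are credited to GENCODE 29 (GRCh38), where all 37 genes were found with the length given in the tables. For the transfer RNAs the capitals mark the anticodon, found as the middle of a 7-base loop closed by a stem of 5 base pairs. The first 4 are light-strand genes. MT-TN and MT-TC are separated by a short gap and moved in opposite directions between the tables, while MT-TY and MT-TS1 had the largest light-strand fold changes with knockdown. MT-TI and MT-TM are heavy-strand genes that differed between the tables.
MT-TN, asparagine, chrM:5657-5729, − strand: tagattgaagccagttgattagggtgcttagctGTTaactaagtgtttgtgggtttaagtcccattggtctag
MT-TC, cysteine, chrM:5761-5826, − strand: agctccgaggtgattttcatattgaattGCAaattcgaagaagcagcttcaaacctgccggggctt
MT-TY, tyrosine, chrM:5826-5891, − strand: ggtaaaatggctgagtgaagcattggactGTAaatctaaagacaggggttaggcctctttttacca
MT-TS1, serine, chrM:7446-7514, − strand: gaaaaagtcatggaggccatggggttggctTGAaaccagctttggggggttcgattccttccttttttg
MT-TI, isoleucine, chrM:4263-4331, + strand: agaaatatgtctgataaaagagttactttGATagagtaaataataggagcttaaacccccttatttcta
MT-TM, methionine, chrM:4402-4469, + strand: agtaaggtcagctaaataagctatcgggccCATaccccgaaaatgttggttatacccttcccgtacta

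MT-ATP8 encodes a small ATP synthase subunit and shares its end with the start of MT-ATP6, the next subunit gene of the same transcript. In its sequence the capitals mark the 46 bases that both genes hold.
MT-ATP8, chrM:8366-8572, + strand: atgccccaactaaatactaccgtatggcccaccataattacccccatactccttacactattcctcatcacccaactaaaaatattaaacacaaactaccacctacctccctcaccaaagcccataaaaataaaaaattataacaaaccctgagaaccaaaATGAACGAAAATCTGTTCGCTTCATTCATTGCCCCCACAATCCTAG

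Total gene counts ran from 14801939 to 33158865 per library. PRMT5 itself lay between 186 and 230 CPM (the count scaled to a common sequencing depth, on TMM-scaled library sizes) in the 6 control libraries and between 24.9 and 32.9 CPM in the 6 knockdown libraries. Luminal prostate markers were high throughout, with KLK3, the prostate-specific antigen, at 1782 to 4078 CPM, and all 10 luminal markers summed to 7194 to 11030 CPM. Markers of other cells summed to 0.732 to 9.98 CPM for 4 basal genes, 13.4 to 32.1 CPM for 7 fibroblast genes and 25.5 to 95.9 CPM for 6 neuroendocrine genes. Of 6 leukocyte markers 2 were at 0 throughout, and nearly all of their sum (48.3 to 259 CPM) was LCP1, an actin-bundling protein also made by cancer cell lines. Both irradiated libraries numbered 1, control and knockdown, stood apart from their group: the chi-square per gene against their replicates ran from 58.0 to 137, against 9.17 and 13.2 between the other irradiated replicates. Replicates with the same number moved together within each table, with correlations of their deviations of 0.233 to 0.296 without and 0.607 to 0.775 with irradiation. Under irradiation replicates 2 and 3 also correlated across numbers, at 0.396 and 0.476. Those numbered 1 stood at −0.677 to −0.592 against the other numbers there, so the irradiated values include the libraries 1 standing apart. Knockdown results are therefore also given with the replicate number as a block. The labels do not say whether replicates were grown separately, and the p-values here cover the variation among these libraries, which may be technical. In bulk RNA, fewer mitochondria or mitochondrial genomes per cell and less RNA from each cannot be told apart.

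Mitochondrial genes took 5.49 ± 0.392% of all counts in non-irradiated controls, 6.09 ± 0.108% in non-irradiated knockdowns, 6.95 ± 0.350% in irradiated controls and 7.02 ± 0.443% in irradiated knockdowns (SD, n = 3 each). The 3 non-irradiated knockdown libraries (5.98 to 6.19%) all lay above the 3 non-irradiated controls (5.23 to 5.94%), and the irradiated groups overlapped. Messenger RNAs made up most of this, at 4.42 ± 0.338% in non-irradiated controls. Ribosomal RNAs took 1.06 ± 0.0537% there, and all 22 transfer RNAs together 0.00649%. The messenger RNAs of complex I took 1.39 ± 0.0917% in non-irradiated controls and 1.63 ± 0.0705% in knockdowns, and those of ATP synthase 0.313 ± 0.0384% and 0.495 ± 0.0917%, both without overlap. Those of complex III (0.3242% and 0.3755%) and complex IV (2.393% and 2.627%) overlapped. Irradiated controls and knockdowns overlapped for every complex, with complex I at 1.605% and 1.763% and ATP synthase at 0.4473% and 0.5433%.

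Per kilobase of gene, the subunits of complex IV (cytochrome c oxidase) led in non-irradiated controls. MT-CO1 stood at 8464 ± 758 CPM per kilobase, MT-CO3 at 6964 ± 903 and MT-CO2 at 6049 ± 668, and the libraries of neighbours in this order overlapped. MT-ND6 was the lowest messenger RNA in all 4 groups, at 353 ± 51.3 CPM per kilobase in non-irradiated controls and 980 ± 277 in irradiated knockdowns. MT-ATP8 was next to lowest in non-irradiated controls, at 668 ± 88.1 CPM per kilobase, and sixth in irradiated knockdowns, at 4264 ± 942.

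**Figure D1:**
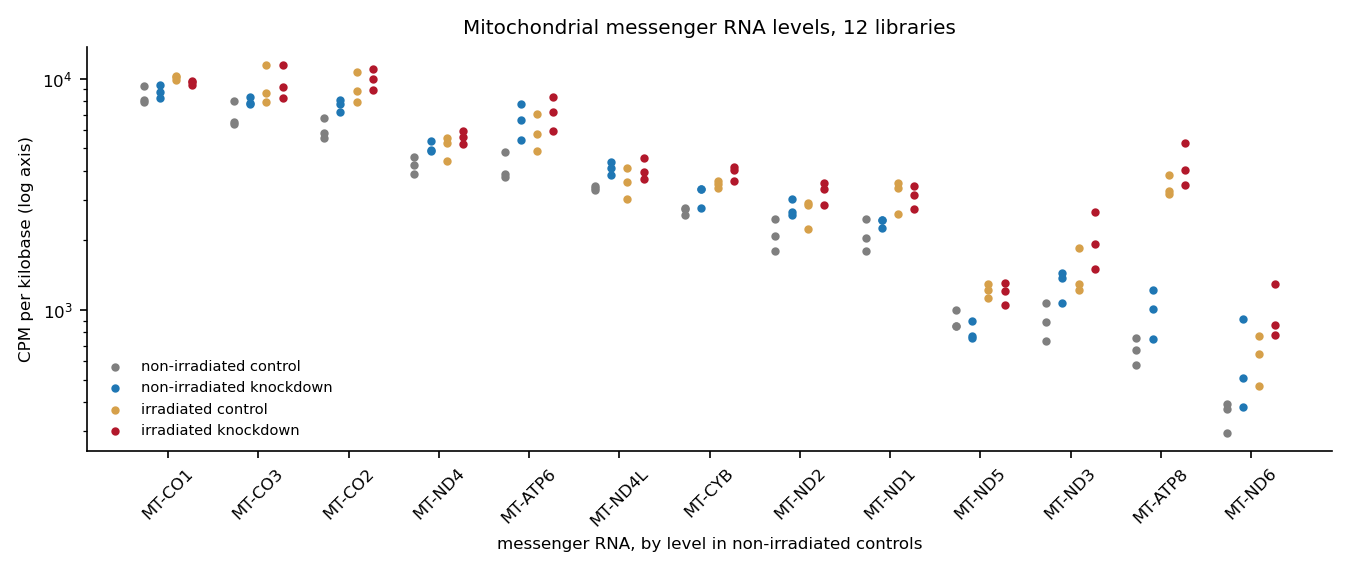
Level of each mitochondrial messenger RNA in CPM per kilobase (log axis), 1 point per library, ordered by the mean in non-irradiated controls. MT-ND6 is lowest in every group, and MT-ATP8 moves from 668 CPM per kilobase in non-irradiated controls to 3419 in irradiated controls.

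Of the 37 genes, 31 passed the filter on low counts and were tested in edgeR with all 17191 genes: 13 of 13 messenger RNAs, both ribosomal RNAs, 8 of 8 light-strand transfer RNAs and 8 of 14 heavy-strand transfer RNAs. The 6 others, MT-TF, MT-TG, MT-TH, MT-TL2, MT-TR and MT-TS2, are heavy-strand transfer RNAs with at most 14 counts in any library. A gene was called at an adjusted p under 0.05.

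Without irradiation, the light-strand genes lay on the positive side of the knockdown comparison throughout: 9 of 9, with a median log2 fold change of 0.79 against 0.005 for all genes tested. The 12 heavy-strand messenger RNAs had a median of 0.27 with 11 positive, the ribosomal RNAs were both slightly negative at −0.13 and −0.14, and the 8 tested heavy-strand transfer RNAs were mixed, with 3 positive and a median of −0.16. No mitochondrial gene passed the edgeR test in either direction. At an unadjusted p under 0.05 there were 9 higher and 0 lower, against 7.62% and 9.82% of all genes. DESeq2 called 1 higher, against 2.25% of all genes higher and 3.77% lower. With edgeR's adjusted p, 0.337% of all genes tested were called higher and 1.20% lower in this comparison. The libraries of both groups did not overlap for 8 of 31 members with knockdown higher (25.8%, against 15.4% of all genes) and for 1 of 31 with knockdown lower (3.23%, against 15.8%). With irradiation the strands were ordered alike. The light-strand genes were again 9 of 9 positive with a median of 0.64, against −0.005 for all genes. The heavy-strand messenger RNAs had a median of 0.16 with 9 of 12 positive, and the ribosomal RNAs were at −0.13 and −0.21. None of the 31 was called by edgeR, where 0.00582% of all genes were called higher and 0.291% lower. DESeq2 called none either, against 0.436% and 1.11% of all genes, and 0 had an unadjusted p under 0.05, against 3.48% and 5.8%. Groups were fully apart for 4 members with knockdown higher (12.9%, against 5.82% of all genes) and for MT-CO1 with knockdown lower (3.23%, against 7.72%).

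**Figure D2:**
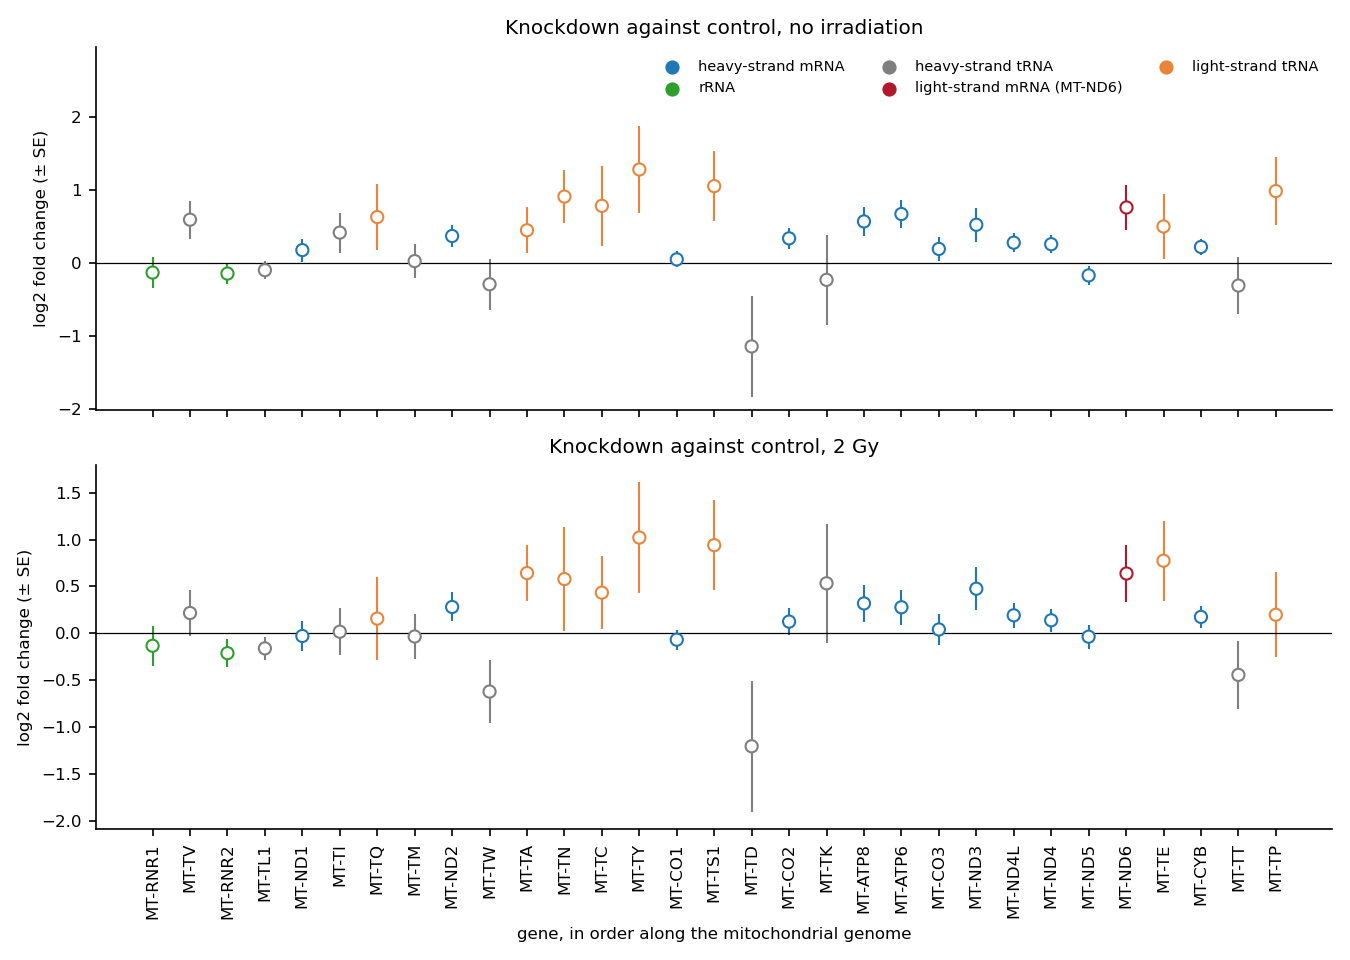
Log2 fold change of knockdown against control (± SE, edgeR) for the 31 tested mitochondrial genes in genome order, without irradiation (upper) and with 2 Gy (lower). Open circles mark genes not called, which here is every gene, and the 9 light-strand genes in orange and red all lie above 0 in both panels.

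MT-ND6, the complex I subunit that is the only messenger RNA of the light strand, was at 205, 196 and 155 CPM in non-irradiated controls 1 to 3 and at 481, 266 and 200 CPM in the knockdowns of the same number. It was higher in the knockdown of every pair, although the third knockdown lay below the first control. The fitted log2 fold change was 0.77 ± 0.31 (SE), 1.70-fold, with an adjusted p of 0.224 in edgeR. With the replicate block it was 0.68 ± 0.17 (adjusted p = 0.0312, edgeR) and was called. Without non-irradiated knockdown replicate 1 it was 0.33, and the light-strand median was 0.31 with 8 of 9 positive. In irradiated cells MT-ND6 was at 405, 339 and 246 CPM in controls and at 681, 452 and 411 CPM in knockdowns. All 3 knockdowns lay above all 3 controls. The log2 fold change was 0.64 ± 0.31, with an adjusted p of 0.563 in edgeR, and it was not called with the block either. Without irradiated knockdown replicate 1 it was 0.37. The light-strand median of irradiated cells was then 0.37 as well, and it was 0.71 without replicate 2, with 8 and 7 of 9 positive.

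Set against the heavy-strand messenger RNAs in the same library, the ratio of MT-ND6 counts was 0.00447 ± 0.000733 in non-irradiated controls and 0.00651 ± 0.00315 in knockdowns. In irradiated cells it was 0.00606 ± 0.00136 in controls and 0.00888 ± 0.00215 in knockdowns. It was higher in the knockdown of all 6 pairs, with groups apart only under irradiation. Light-strand genes as a whole gave 0.394% of mitochondrial counts in non-irradiated controls, 0.600% in non-irradiated knockdowns, 0.479% in irradiated controls and 0.727% in irradiated knockdowns. The knockdown of every pair was higher, and under irradiation the knockdowns, at 0.590% to 0.886%, lay above all controls, at 0.366% to 0.537%. Of the 9 light-strand genes, 4 were higher in the knockdown of all 6 pairs. So were 8 of 12 heavy-strand messenger RNAs, 0 of 8 tested heavy-strand transfer RNAs and 14.5% of all genes. These genes share the same 6 pairs of libraries and are not replicates of each other.

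**Figure D3:**
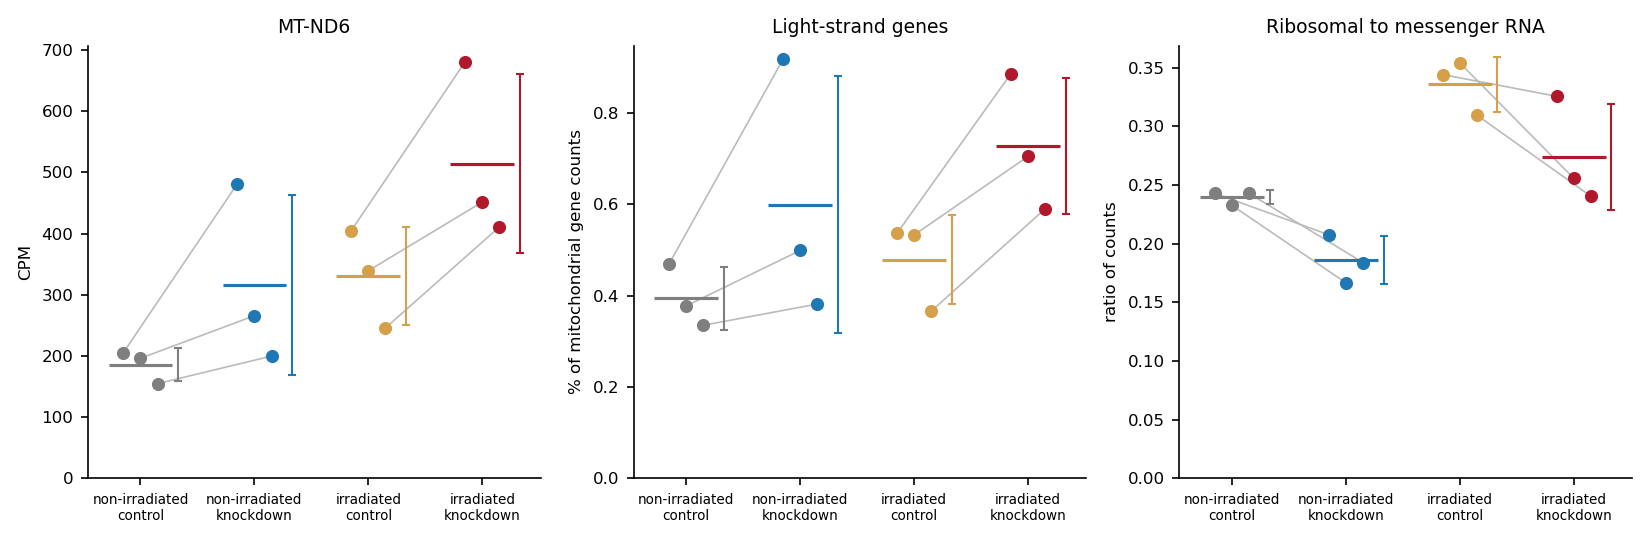
MT-ND6 level (CPM), the percentage of mitochondrial counts from light-strand genes and the ratio of ribosomal to messenger RNA counts, 1 point per library with grey lines joining replicates of the same number, horizontal bars for means and error bars for SD (n = 3). MT-ND6 is higher and the ribosomal ratio lower at the knockdown end of all 6 lines.

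Light-strand transfer RNAs had the largest positive fold changes among the members tested. MT-TY, for tyrosine, was at 1.45, 1.18 and 0.622 CPM in non-irradiated controls and at 4.19, 2.13 and 1.66 CPM in knockdowns, which did not overlap. MT-TS1, one of the 2 serine transfer RNAs, was at 4.84, 5.10 and 3.26 CPM in controls and at 14.2, 8.61 and 4.81 CPM in knockdowns. For MT-TY the log2 fold change was 1.29 without irradiation and 1.02 with it, and for MT-TS1 it was 1.06 and 0.94. These are low counts with a wide spread, and neither passed without the block. Under irradiation MT-TS1 was at 0.38 without irradiated knockdown replicate 1 and at 1.44 without irradiated control replicate 1. With the replicate block MT-TY and MT-TS1 were called higher in both states. Adjusted p (edgeR) was then 0.00268 and 0.0190 for MT-TY and 0.00270 and 0.00913 for MT-TS1. MT-TN, for asparagine, had the smallest p of the light-strand transfer RNAs without irradiation (log2 fold change 0.92 ± 0.36, adjusted p = 0.214, edgeR). Its knockdown libraries, at 4.08, 2.23 and 1.63 CPM, all lay above the controls at 1.32, 1.39 and 1.44. Without non-irradiated knockdown replicate 1 its log2 fold change was 0.48. In irradiated cells MT-TA, for alanine, was at 1.98, 2.39 and 1.37 CPM in controls and at 3.72, 2.71 and 2.56 CPM in knockdowns (log2 fold change 0.64 ± 0.30, adjusted p = 0.551, edgeR). MT-TE, for glutamate and the direct neighbour of MT-ND6, had 0.78 ± 0.43 there (adjusted p = 0.617), or 0.43 without irradiated knockdown replicate 1, and was called with the block (0.77 ± 0.22, adjusted p = 0.0469, edgeR). Counts of light-strand over heavy-strand transfer RNAs had a ratio of 0.439 in non-irradiated controls and 0.792 in knockdowns, and of 0.480 and 0.742 under irradiation. Of the other light-strand transfer RNAs, MT-TP, for proline, had 0.99 ± 0.47 and 0.20 ± 0.45, MT-TC, for cysteine, 0.79 ± 0.55 and 0.43 ± 0.39, and MT-TQ, for glutamine, 0.64 ± 0.45 and 0.16 ± 0.44. Short nuclear genes moved the same way to a smaller extent: over 139 tested genes of under 150 bases the medians were 0.26 without and 0.18 with irradiation. Their part in the light-strand values was not tested.

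Among heavy-strand transfer RNAs, MT-TD, for aspartate, stood opposite to the light strand. It was at 1.26, 2.66 and 2.11 CPM in non-irradiated controls and at 0.827, 1.01 and 0.900 CPM in knockdowns, which did not overlap. In irradiated cells it was at 0.802, 1.49 and 2.20 CPM in controls and at 0.653, 1.23 and 0 CPM in knockdowns, where the count of 0 in library 3 allows up to 0.135 CPM on the same scale. It was the only member that was lower in the knockdown of all 6 pairs (3.23% of 31 members, against 14.4% of all genes), and it was not called. MT-TV, for valine, which lies between both ribosomal RNAs, had 0.60 ± 0.26 without irradiation (adjusted p = 0.263, edgeR), and its 3 knockdown libraries exceeded the 3 controls. Without non-irradiated knockdown replicate 1 it was at 0.26. MT-TL1, for leucine, was the most abundant transfer RNA, at 22.5 to 31.9 CPM over all 12 libraries, with log2 fold changes of −0.09 and −0.16. MT-TW, for tryptophan, had −0.62 ± 0.34 under irradiation (adjusted p = 0.614, edgeR), or −0.99 without irradiated knockdown replicate 2, MT-TT, for threonine, −0.30 and −0.44, and MT-TK, for lysine, −0.23 and 0.53 on at most 16 counts.

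Heavy-strand messenger RNAs were mostly a little higher in knockdowns. Of all 13 messenger RNAs, 9 were higher in the knockdown of all 6 pairs: MT-ATP6, MT-ATP8, MT-CO2, MT-CYB, MT-ND2, MT-ND3, MT-ND4, MT-ND4L and MT-ND6. Over the 31 members 12 did so (38.7%, against 14.5% of all genes), the other 3 being MT-TE, MT-TS1 and MT-TY. With the replicate block 12 members were called higher without irradiation (38.7%, against 13.7% of all genes) and none lower (14.1% of all genes). They were MT-ND6, MT-ATP6, MT-CO2, MT-CYB, MT-ND2, MT-ND3, MT-ND4, MT-ND4L, MT-TN, MT-TY, MT-TS1 and MT-TP. With irradiation and the block 5 were called higher (16.1%, against 5.43%) and none lower (6.05% of all genes), namely MT-ND2, MT-ND3, MT-TY, MT-TS1 and MT-TE. The share of all genes called rose with the block too, and these blocked counts depended on which pair was left out. Without the pairs numbered 2 or 3 they were 6 of 31 without irradiation, where 9.25% and 8.04% of all genes were called in either direction, and 0 with it, where 0.79% and 1.1% were. Without the pairs numbered 1 they were 14 of 31 in both states, with MT-RNR1 and MT-RNR2 among those lower, where 42.3% of all genes were called without and 29.3% with irradiation.

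Without irradiation, the ATP synthase subunits had the largest fold changes of the heavy-strand messenger RNAs. MT-ATP6, part of the proton channel, was at 2567, 3276 and 2633 CPM in non-irradiated controls and at 5325, 4533 and 3694 CPM in knockdowns. All 3 knockdowns lay above all 3 controls. The log2 fold change was 0.68 ± 0.19, 1.60-fold, with an adjusted p of 0.0955 in edgeR. It was called with DESeq2 (0.68, adjusted p = 0.0204) and with the replicate block (0.67 ± 0.10, adjusted p = 0.00104, edgeR), as it was without irradiated control replicate 1, which enters this comparison only through the shared estimate of spread. MT-ATP8 was at 119.5, 156 and 139 CPM in controls and at 253, 210 and 155.5 CPM in knockdowns, so that the lowest knockdown fell just under the highest control (0.58 ± 0.20, adjusted p = 0.161, edgeR). In irradiated cells both were closer between the groups, at 0.28 ± 0.19 for MT-ATP6 (adjusted p = 0.708, edgeR) and at 0.32 ± 0.20 for MT-ATP8.

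For complex I, MT-ND2 had 0.38 ± 0.16 without irradiation (adjusted p = 0.237, edgeR), with controls at 1880, 2577 and 2179 CPM and knockdowns at 2753, 3157 and 2697 CPM. Its groups did not overlap. Under irradiation it had 0.28 ± 0.16 (adjusted p = 0.617), or 0.15 without irradiated control replicate 2. MT-ND3 had 0.53 ± 0.23 without irradiation and 0.48 ± 0.23 with it (adjusted p = 0.265 and 0.569, edgeR), the latter 0.22 without irradiated knockdown replicate 1. MT-ND1, MT-ND4 and MT-ND4L had 0.18, 0.26 and 0.28 without irradiation and −0.03, 0.14 and 0.19 with it. MT-ND5, whose neighbour on the opposite strand is MT-ND6, was the only messenger RNA with negative values in both states, at −0.17 and −0.04. Complex III has a single mitochondrial subunit, MT-CYB, with 0.23 and 0.18 (adjusted p = 0.344 and 0.697, edgeR). In complex IV, MT-CO2 had 0.34 ± 0.14 without irradiation, where its groups did not overlap, and 0.12 ± 0.14 with it (adjusted p = 0.243 and 0.868, edgeR). MT-CO1, the catalytic subunit, was at 0.06 and −0.07, and MT-CO3 at 0.20 and 0.04. 

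The ribosomal RNAs had small negative log2 fold changes that did not pass the test in either state. MT-RNR2, the 16S RNA of the large ribosomal subunit, was at 8055, 9259 and 8354 CPM in non-irradiated controls and at 8330, 7267 and 7692 CPM in knockdowns. Its log2 fold change was −0.14 ± 0.15 without and −0.21 ± 0.15 with irradiation (adjusted p = 0.674 and 0.718, edgeR). MT-RNR1, the 12S RNA of the small subunit, had −0.13 ± 0.21 in both states (adjusted p = 0.812 and 0.918), and in the pairs numbered 1 it was higher in the knockdown in both states. The ratio of MT-RNR1 to MT-RNR2 counts was 0.171 ± 0.00873 in non-irradiated controls and 0.171 ± 0.0253 in knockdowns. The ratio of ribosomal to messenger RNA counts was 0.240 ± 0.00593 in non-irradiated controls and 0.186 ± 0.0205 in knockdowns, without overlap. Under irradiation it was 0.336 ± 0.0234 and 0.274 ± 0.0454, with overlap, and it was lower in the knockdown of all 6 pairs.

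The knockdown effects of both states were not told apart. In the test of their difference 0 of 17191 genes were called higher and 0 lower (0% each), every member had an adjusted p of 1 in edgeR, and at an unadjusted p under 0.05 there was no member in either direction. The signed difference, irradiated minus non-irradiated, was negative for 27 of 31 members and for 8624 of all 17191 genes. The members share the same libraries, and single libraries weighed on this. Of the 9 light-strand genes 2 were positive with all libraries (median −0.265). Without non-irradiated knockdown replicate 1, 8 of 9 were positive (median 0.205). MT-ATP6 had the smallest p (difference −0.40 ± 0.27), followed by MT-TP (−0.79 ± 0.65), MT-TI (−0.41 ± 0.37), MT-CO2 (−0.22 ± 0.20), MT-TV (−0.38 ± 0.36) and MT-ND1 (−0.21 ± 0.22). The differences for MT-ND6 (−0.13 ± 0.43), MT-RNR1 (−0.01 ± 0.30) and MT-RNR2 (−0.07 ± 0.21) were within 1 SE of 0.

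Between the irradiated and the non-irradiated table the changes were larger and uneven along the genome. In controls 4 members were called higher (12.9%, against 1.38% of all genes) and 2 lower (6.45%, against 0.878%). In knockdowns the same 6 were called in the same direction and MT-ND5 was added, which gave 5 higher (16.1%, against 2.18%) and 2 lower (6.45%, against 1.40%). The 6 were MT-RNR2, MT-ATP8, MT-TI and MT-TC on the higher side and MT-TM and MT-TN on the lower. Both comparisons share no library, but each sets the same pair of tables against each other. Groups were fully apart for 14 members higher and 2 lower in controls (45.2% and 6.45%, against 13.7% and 13.9% of all genes). In knockdowns they were apart for 12 higher and 2 lower (38.7% and 6.45%, against 15.8% and 14%).

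**Figure D4:**
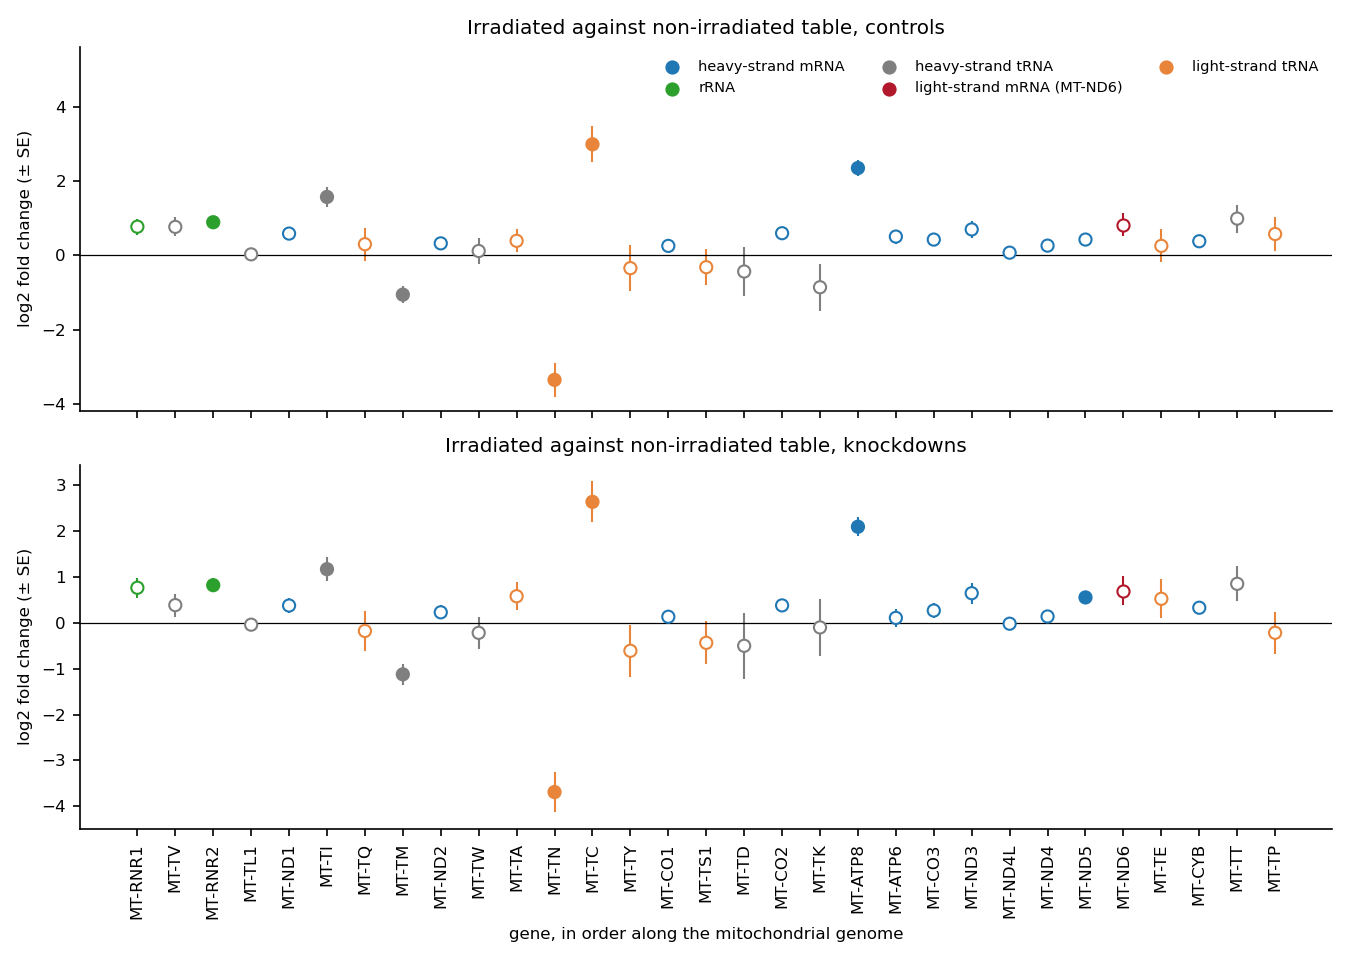
Log2 fold change of irradiated against non-irradiated libraries (± SE, edgeR) for the 31 tested mitochondrial genes in genome order, for controls (upper) and knockdowns (lower). Filled circles were called at an adjusted p under 0.05; MT-TN and MT-TC, next to each other on the genome, lie at −3.36 and 3.00 in controls.

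MT-ATP8 differed most clearly. It was at 119.5, 156 and 139 CPM in non-irradiated controls and at 793.5, 675 and 654 CPM in irradiated controls. The log2 fold change was 2.36 ± 0.21, 5.12-fold, with an adjusted p of 0.000246 in edgeR. In knockdowns it was at 253, 210 and 155.5 CPM without and at 1098, 719 and 831 CPM with irradiation (2.10 ± 0.21, adjusted p = 0.000674, edgeR). MT-ATP6, which overlaps it on the same transcript in the capital letters of the printed sequence, had only 0.51 ± 0.19 and 0.11 ± 0.19. It was not called, and both genes are counts of overlapping stretches rather than of separate RNAs. The ratio of MT-ATP8 to MT-ATP6 counts, chosen after the values were seen, therefore separated the tables in every library. It was 0.0421 to 0.0529 in the 6 non-irradiated and 0.165 to 0.204 in the 6 irradiated libraries. MT-ND4L and MT-ND4, the other overlapping pair on one strand that shares more than 1 base (7 bases), showed no such step, with ratios of 0.156 to 0.193 and 0.118 to 0.174.

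Of the called transfer RNAs, MT-TN and MT-TC are neighbours on the light strand. MT-TN had 21, 33 and 30 counts in non-irradiated controls and 4, 3 and 4 counts in irradiated controls. In knockdowns it had 74, 64 and 47 counts without irradiation and 3, 5 and 7 with it. Its log2 fold changes were −3.36 ± 0.46 in controls and −3.69 ± 0.44 in knockdowns (adjusted p = 0.00739 and 0.00213, edgeR). MT-TC had 5, 8 and 4 counts in non-irradiated and 66, 74 and 53 counts in irradiated controls, and 16, 15 and 4 against 100, 79 and 58 counts in knockdowns. It had 3.00 ± 0.49 and 2.64 ± 0.45 (adjusted p = 0.0149 and 0.0132). The ratio of MT-TC to MT-TN counts was at most 0.242 in the 6 non-irradiated libraries and at least 8.29 in the 6 irradiated ones. It was chosen after these changes were seen and restates them. Their light-strand neighbours on either side did not follow: MT-TA had 0.39 and 0.58, and MT-TY had −0.34 and −0.61, none of them called.

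On the heavy strand, MT-TI was at 1.45, 1.39 and 1.10 CPM in non-irradiated controls and at 4.12, 4.10 and 3.53 CPM in irradiated controls (1.58 ± 0.27, adjusted p = 0.0167, edgeR). In knockdowns it had 1.17 ± 0.26 (adjusted p = 0.0347). MT-TM, for methionine, fell in both, with −1.06 ± 0.23 in controls and −1.12 ± 0.24 in knockdowns (adjusted p = 0.0427 and 0.0312, edgeR). Its levels were 4.53 to 7.59 CPM in non-irradiated and 2.63 to 3.36 CPM in irradiated controls. MT-TQ, on the opposite strand between them, which shares 3 bases with MT-TI, had 0.30 and −0.18 and was not called.

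**Figure D5:**
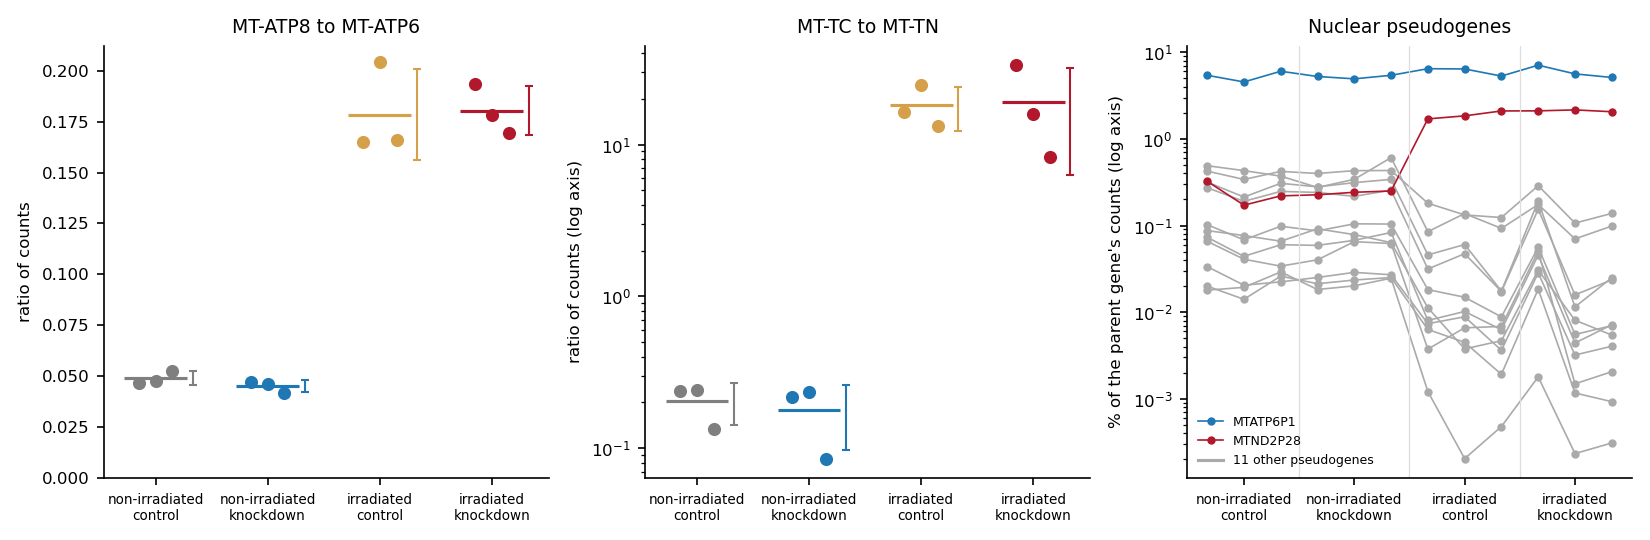
Ratio of MT-ATP8 to MT-ATP6 counts, ratio of MT-TC to MT-TN counts (log axis), and counts of 13 nuclear pseudogenes as a percentage of their mitochondrial parent gene (log axis, lines join the same pseudogene across all 12 libraries). Horizontal bars are means and error bars SD (n = 3). Both ratios were chosen after the values were seen. The ratios and MTND2P28 step up between the tables, MTATP6P1 stays level, and the group means of the other 11 pseudogenes are lower in irradiated libraries.

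Both ribosomal RNAs were higher in irradiated libraries without overlap. MT-RNR2 rose to 17630, 15460 and 14630 CPM in irradiated controls (0.89 ± 0.15, 1.86-fold, adjusted p = 0.0149, edgeR) and to 16880, 12090 and 12230 CPM in irradiated knockdowns (0.82 ± 0.15, adjusted p = 0.0165). MT-RNR1 had 0.77 ± 0.21 in both (adjusted p = 0.0774 and 0.0730) and was called with DESeq2 (0.0151 and 0.0149). The messenger RNAs had medians of 0.43 in controls, with 13 of 13 positive, and 0.33 in knockdowns, with 12 of 13 positive. Of these MT-ATP8 was called in both and MT-ND5 in knockdowns (0.56 ± 0.13, adjusted p = 0.0392, edgeR). MT-CO2 had 0.60 ± 0.14 in controls (adjusted p = 0.0515) and MT-ND6 had 0.83 ± 0.31 in controls and 0.71 ± 0.31 in knockdowns (adjusted p = 0.149 and 0.215). With scaling by library size alone the median of all genes shifted to −0.16 in controls and −0.15 in knockdowns, and the messenger RNA medians became 0.28 and 0.19. The calls depended on single libraries: without non-irradiated control replicate 2 or 3 only MT-ATP8 and MT-TN were called in controls, and without non-irradiated knockdown replicate 2 the same 2 in knockdowns. Calls over all genes fell in these fits too. In controls they went from 238 higher and 151 lower to 21 and 18 without replicate 2, and to 16 and 8 without replicate 3. In knockdowns they went from 374 and 241 to 50 and 26. Leaving out non-irradiated knockdown replicate 1 or 3 or irradiated knockdown replicate 2 or 3 gave 4 member calls. The other libraries of the groups compared gave 4 to 6 in controls and 5 in knockdowns. A library outside the groups compared enters through the shared spread, and leaving out 1 of those gave 5 to 8 calls in controls and 4 to 8 in knockdowns. DESeq2 called 9 higher and 2 lower in controls (against 4.68% and 3.33% of all genes) and 7 higher and 2 lower in knockdowns (against 4.83% and 3.53%).

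Nuclear copies of mitochondrial DNA bear on how reads of these genes are assigned. The tables name 401 nuclear pseudogenes after a mitochondrial gene, of which 95 had any count and 16 were tested. Together they held between 0.415% and 0.708% as many counts as the mitochondrial genes in each library. Of the 50-base words of MT-CO1, 49.5% occur also in another GENCODE transcript. For MT-ATP6 it was 46.7%, for MT-ND2 43.6%, for MT-ND6 17.9% and for MT-ATP8 8.23%. The transfer RNAs, MT-RNR1, MT-ND3 and MT-ND4L share none with these transcripts. Nuclear copies outside annotated transcripts were not searched, so such copies of the transfer RNAs may exist. None of the 16 was called with knockdown, with 13 positive without and 15 with irradiation. Of the 16, 14 had negative log2 fold changes of irradiated against non-irradiated libraries in controls and in knockdowns, with medians of −2.05 and −1.34. MTND2P28, at chr1:629640-630683 and 98.4% identical to MT-ND2, went the other way, from 4.43 to 6.10 CPM in non-irradiated controls to 42.9 to 62.3 CPM in irradiated controls (3.36 ± 0.18, adjusted p = 2.47e-06, edgeR). MT-ND2 had 0.33 and 0.23 between the tables and was not called. Relative to MT-CO3, its pseudogene MTCO3P12 held 0.190% to 0.273% of counts in non-irradiated libraries and 0.0158% to 0.0472% in 5 irradiated ones, but 0.154% in irradiated knockdown replicate 1. Adding all pseudogene counts to their parent genes left the calls at 6 in controls and 7 in knockdowns. This fit could change the calls little: the added counts were few, and none of the 16 tested pseudogenes was named after a transfer RNA. Nuclear genes shorter than 150 bases also moved between the tables, with medians of −0.37 in controls and −0.31 in knockdowns over 139 genes. The part of these shifts in the values of the mitochondrial genes was not tested.

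Nuclear partners of these genes were read from lists. Of 78 nuclear subunits of complexes I to IV and ATP synthase, none was called with knockdown in either state by edgeR, with medians of 0.10 without irradiation (57 of 78 positive) and −0.05 with it (22 of 78 positive). At an unadjusted p under 0.05 there were 2 higher and 3 lower without irradiation, against 7.62% and 9.82% of all genes. With irradiation there was 1 of each, against 3.48% and 5.8%. Between the tables most lay on the positive side, as the mitochondrial messenger RNAs did. In controls 76 of 78 were positive with a median of 0.58, and 7 were called higher, against 1.38% of all genes. In knockdowns 75 of 78 were positive with a median of 0.44, and 3 were called higher, against 2.18%. Examples called in controls are ATP5O of the ATP synthase stalk (0.74 ± 0.14, adjusted p = 0.0289, edgeR), UQCRC2, a complex III core protein (0.59 ± 0.13, adjusted p = 0.0379), and COX7C of complex IV (0.80 ± 0.17, adjusted p = 0.0408). The summed complex III subunits stood at 2743 CPM in irradiated control replicate 1 and at 1692 and 1588 in the others, so the libraries that stood apart were also the highest here.

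Of 45 genes for mitochondrial transcription and RNA processing, 44 were tested and edgeR called none with knockdown, with medians of 0.09 and 0.07. At an unadjusted p under 0.05 there were 3 higher and 2 lower without irradiation, against 7.62% and 9.82% of all genes. With irradiation there were 2 higher, against 3.48%, and none lower, against 5.8%. POLRMT, the polymerase, had 0.18 ± 0.12 and 0.03 ± 0.12 (adjusted p = 0.465 and 0.973, edgeR), with 31.9 to 33.5 CPM in non-irradiated controls and 36.2 to 37.8 CPM in knockdowns. TFAM, which packs and starts transcription of the genome, had 0.06 ± 0.10 and 0.07 ± 0.10. LRPPRC had −0.04 ± 0.13 and 0.11 ± 0.13, and SLIRP, its partner in keeping messenger RNAs, 0.21 ± 0.36 and −0.07 ± 0.36. Between the tables NRF1, a transcription factor for respiratory genes, fell by 1.10 in controls and by 0.95 in knockdowns on the log2 scale (adjusted p = 0.0320 and 0.0416, edgeR). MTERF1, which binds mitochondrial DNA behind the ribosomal RNA genes, rose in knockdowns (0.64 ± 0.14, adjusted p = 0.0347). SLIRP had 1.32 ± 0.37 in controls and was not called (adjusted p = 0.0789). All 26 genes of mitochondrial DNA maintenance were tested, and none was called in any comparison, with medians of 0.15 and 0.07 for knockdown.

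Some genes listed as RNAs that lack a poly(A) tail differed in the same comparisons. Replication-dependent histones were taken by gene name, and whether each listed RNA lacks the tail was not tested. Of 89, 44 were tested, with a median of −0.32 with knockdown without irradiation. There 5 were called lower, against 1.20% of all genes, and 0 higher. Among the 5 was HIST1H2BN (−1.01 ± 0.12, adjusted p = 0.00292, edgeR). With irradiation the knockdown median was −0.09. Between the tables it was −0.32 in controls and −0.01 in knockdowns. RPPH1, the RNA of nuclear RNase P, was at 1.63 to 2.63 CPM in non-irradiated and 0.191 to 0.404 CPM in irradiated controls (−2.82 ± 0.41, adjusted p = 0.00839). Of 14 such named RNAs only RN7SL2, an RNA of the signal recognition particle, was also tested. It lay on the other side, at 1.56 ± 0.76 in controls and 2.54 ± 0.78 in knockdowns, and was not called (adjusted p = 0.252 and 0.0985, edgeR). Their part in the transfer RNA results was not tested.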

How the data were processed

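Values are raw counts per gene as deposited by the authors, in 2 tables of 6 libraries with the layout of featureCounts output, per the file headers. Per the submitters' processing notes, STAR 2.5 and featureCounts (Subread 1.5.3) were used with GRCh38, and edgeR 3.20.8 is listed too. The sources used here do not give the strand option or how multi-mapping reads were handled. Counts were fitted with edgeR 4.0.16 in R 4.3.3: filterByExpr (minimum count 10, minimum total 15), TMM, 1 robust quasi-likelihood model over 12 libraries (8 residual degrees of freedom), Benjamini-Hochberg adjustment over 17191 genes. SE is the log2 fold change divided by the root of the F statistic. DESeq2 1.42.0 and limma 3.58.1 were alternatives, and the fit was tested on simulated data. The block is the replicate number within a table, where same-numbered deviations correlated at 0.233 to 0.775; across tables they did not (−0.15 to 0.143). A count of 3, allowed by a count of 0, was 0.0932 to 0.189 CPM and covers counting error only. No replicates agreed within sampling noise. Members and lists were chosen with earlier results of these data known, so shares and ratios carry no p. Statistics were given for MT-ND6, both ribosomal RNAs and up to 6 members with the smallest p per comparison, and others after their values were seen. Sequences were matched by name in GENCODE 29.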

Additional observations from a re-analysis of the deposited data

How the results depend on the processing

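No mitochondrial gene was called with knockdown without irradiation. DESeq2 and a fit of the 6 libraries compared each called 1 (MT-ATP6) and the replicate block 12. Over all genes DESeq2 called 386 higher and 648 lower, the fit of 6 libraries 647 and 839, and the block 2349 and 2427. With irradiation the block called 5. The block without 1 replicate number, chosen after seeing the data, called 6 to 14 without and 0 to 14 with irradiation. For irradiation in controls (6 called) DESeq2 called 11, and leaving out 1 library of the groups compared gave 2 to 6. In knockdowns (7 called) the 6 libraries alone gave 4, where 216 of all genes were called higher and 128 lower. Leaving out 1 library of the groups compared gave 2 to 5 there. On a nuclear, TMM-scaled denominator the irradiated over non-irradiated log2 ratio became 0.515 for the mitochondrial share in controls and 0.363 in knockdowns, 0.407 and 0.258 for messenger RNAs and 0.896 for ribosomal RNAs in controls, all larger than on total counts, and it turned from −0.025 to 0.145 for transfer RNAs in controls. The other 218 of 224 alternatives for shares and ratios stayed within the spread between replicates. Of 774 alternatives for named members 682 kept direction and side of the threshold, 38 lost and 41 gained a call, and 13 changed sign, all by leaving out 1 library. MT-RNR1 with knockdown under irradiation then ran from −0.43 to 0.001. The difference of knockdown effects ran from −0.386 to 0.312 for MT-ND6, from −0.298 to 0.182 for MT-RNR1 and from −0.253 to 0.017 for MT-RNR2. The causes were not tested. The replicate block across tables, where numbers pair nothing, gave 9 calls in controls and 9 in knockdowns, 7 higher and 2 lower in each. Of all genes it called 3.4% higher and 2.22% lower in controls, and 4.14% and 2.59% in knockdowns. Low counts limit the transfer RNAs.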

Other observations

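MTATP6P1, a nuclear copy of MT-ATP6 on chromosome 1, held 4.54% to 7.08% of the counts of its parent in every library, while each of the 12 other aligned pseudogenes held under 2.16%. Unlike MTND2P28 it showed no step between the tables, with 4.54% to 6.03% in non-irradiated and 5.11% to 7.08% in irradiated libraries.

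Some of the 6 transfer RNAs below the filter differed between groups in raw counts, which are not scaled to depth. Total counts were 14801939 to 27676809 in non-irradiated and 23017850 to 33158865 in irradiated libraries. MT-TG had 1 count in all 6 non-irradiated libraries together and 2 to 8 counts in each irradiated library, and MT-TH had 0 to 2 against 3 to 9. MT-TF had 1 count in each non-irradiated control and 13, 4 and 3 in non-irradiated knockdowns 1 to 3. Irradiated controls had 5 to 8 and irradiated knockdowns 2 to 7. MT-TR (0 to 14 counts), MT-TS2 (0 to 6) and MT-TL2 (0 to 14) overlapped between the tables. These values carry no test.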
